A study of Mus musculus with 7 samples.

Results

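Genes of threonine, serine and one-carbon metabolism were followed in RNA-seq counts of mouse embryonic fibroblasts (MEFs) and mouse embryonic stem cells (mESCs). The 10 genes were taken by symbol from the 55484 gene rows of the count table: the threonine enzymes Tdh and Gcat, the glycine decarboxylase Gldc, the serine hydroxymethyltransferases Shmt1 and Shmt2, the folate enzymes Mthfd1, Mthfd2 and Mthfd1l, and the serine synthesis enzymes Phgdh and Psat1. All 10 had enough counts to be tested, as did 16580 genes in all. MEFs are fibroblasts grown from mouse embryos, mESCs are pluripotent cells derived from the early embryo, and both were of C57/Bl6 background with no treatment or gene alteration named. The series holds 4 MEF and 3 mESC libraries, called MEF A to MEF D and mESC A to mESC C in the order of the columns of the count table. A sort for THY1 in MEFs and for SSEA1 and EPCAM in mESCs is described for the chromatin libraries of the study, and whether these RNA libraries came from sorted cells is not stated.

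Threonine dehydrogenase (Tdh) oxidizes threonine in mitochondria, and glycine C-acetyltransferase (Gcat) splits its product into glycine and acetyl-CoA. The glycine cleavage system, whose decarboxylase is Gldc, takes apart glycine and loads the released carbon unit onto tetrahydrofolate. Serine, which cells can make from the glycolytic intermediate 3-phosphoglycerate, gives up such a unit through Shmt1 in the cytosol or Shmt2 in mitochondria, and the Mthfd enzymes oxidize or reduce the folate-bound unit for purine, thymidylate and methionine synthesis. Mouse embryonic stem cells are known for high Tdh and for their need of threonine in the medium.

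The libraries held between 6528643 and 11441278 counts, each count being a read on the exons of a gene after collapsing molecular identifiers. A floor of 3 counts corresponded to 0.288 to 0.477 normalised counts, the unit used for all levels here, which is CPM over library sizes scaled by the TMM method. This floor covers counting error only, while the 95% intervals of fold changes come from the edgeR fit and include the spread between libraries. The study's figure legends describe its RNA data as 3 biological replicates, while the series holds 4 MEF libraries. Whether libraries of a cell type came from separate cultures is not stated. The p-values thus measure the spread between these libraries, which may be technical. Markers matched the labels: 11 of 12 pluripotency genes were higher in mESCs, with the other, Fut4, too low to be tested, and 12 of 12 fibroblast genes were lower. The summed fibroblast markers held 24126 to 41333 normalised counts in MEFs and 349 to 410 in mESCs, while the summed pluripotency markers held 46.0 to 48.8 in MEFs and 3450 to 3723 in mESCs. The extraction protocol in the labels speaks of blood stem cells, yet the 8 blood markers summed to 2.74 to 15.7 in MEFs and 55.5 to 64.1 in mESCs, of which Laptm5 held a mean of 58.4 in mESCs, and the leukocyte gene Ptprc had means of 1.0 and 0.0379. Summed endothelial markers held 5.99 to 7.63 in MEFs and 23.4 to 39.5 in mESCs, with Pecam1 the gene that was higher. Summed markers of early differentiated lineages held 36.9 to 48.9 in MEFs and 38.0 to 64.4 in mESCs, yet their genes differed. Of the 4 tested, 2 were higher in mESCs and 0 lower. These were Eomes, with means of 2.34 in MEFs and 9.88 in mESCs, and Sox1, with 0.363 and 4.18. Gata6 held 30.1 and 16.8 and was not called. These are bulk samples, so fewer cells that express a gene and less RNA per cell cannot be told apart.

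The question was how the enzymes of these linked pathways differ between pluripotent cells and fibroblasts. Of the 10 genes, 5 rose in mESCs (Tdh, Gldc, Mthfd1, Shmt1 and Gcat) and 3 fell (Phgdh, Psat1 and Shmt2), while Mthfd2 and Mthfd1l did not pass the threshold (adjusted p under 0.05, edgeR quasi-likelihood test, Benjamini-Hochberg over all genes tested). Among all genes tested, 22.8% were higher and 25% lower in mESCs by the same rule. MEF and mESC libraries were fully separated in level for 8 of the 10 genes, against 52.1% of all genes tested. The median log2 fold change of the 10 genes was 0.27 against 0.04 for all genes tested, and the median absolute log2 fold change 1.38 against 0.81. Without TMM scaling the median of all genes moved from 0.04 to 0.32 and that of the 10 genes from 0.27 to 0.55, and 60.8% of all calls were higher in mESCs in place of 47.7%. The differences ran from a log2 fold change of 8.33 for Tdh to -1.55 for Phgdh.

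**Figure D1:**
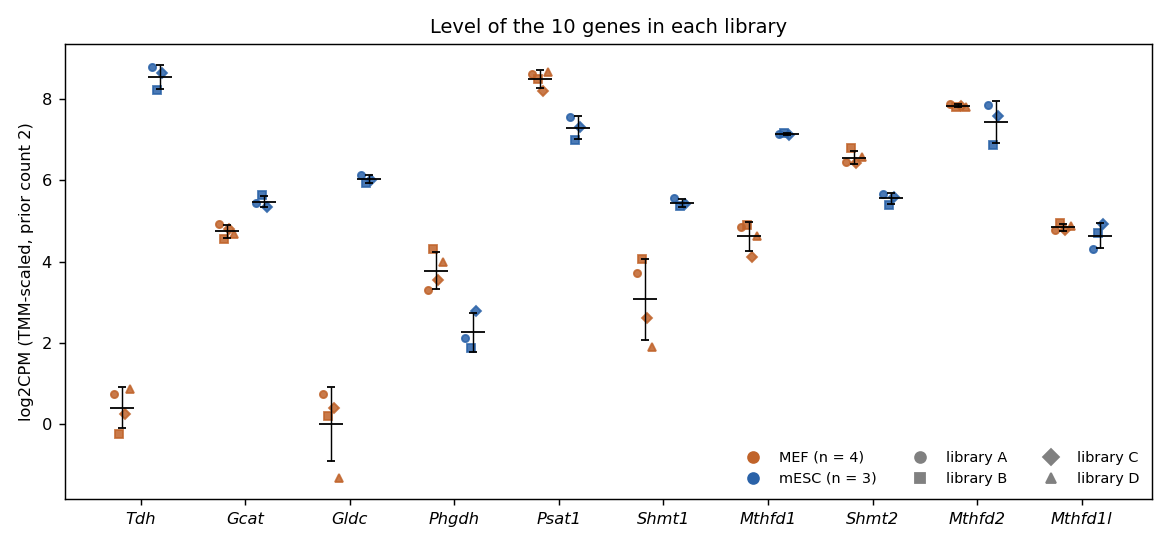
Level of each gene as log2CPM (TMM-scaled, prior count 2) in every library, MEFs in orange (n = 4) and mESCs in blue (n = 3); symbols mark the library letter, and bars give the mean and SD. Tdh and Gldc lie far apart between the cell types, while the points of Mthfd2 and Mthfd1l overlap.

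Tdh (chromosome 14 of GRCm38, 63492347 to 63509092, minus strand) showed the largest difference of the 10 genes. It held 444, 297 and 395 normalised counts in mESC A, B and C, from 4097, 2613 and 3352 counts. The MEF libraries held 1.44, 0.610, 0.959 and 1.59, from 15, 4, 8 and 10 counts. Every MEF library was thus above the floor of 3 counts and far below every mESC library. The log2 fold change was 8.33 (95% interval 7.70 to 8.96, SE 0.285, edgeR adjusted p = 1.64e-08), and 31 of the 16580 genes tested had a larger one. The mean MEF level was 0.303% of the mESC mean. For the 11 pluripotency markers that were tested, this share ran from 0.398% (Dppa4) to 4.45% (Epcam); whether the few Tdh counts of MEFs share a source with those of the markers was not tested. A 50-base sequence of Tdh transcripts occurred in another annotated gene in 10.2% of cases, all of them in the pseudogene Gm13929, which held at most 8 counts in any library.

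Gcat (chromosome 15, 79030874 to 79038353, plus strand), the enzyme after Tdh, differed far less. Its levels were 30.4, 23.3, 27.7 and 25.6 normalised counts in MEF A to D and 43.6, 49.3 and 40.7 in mESC A to C. The lowest mESC library was above the highest MEF library, and the log2 fold change was 0.73 (95% interval 0.35 to 1.12, edgeR adjusted p = 0.00527). The annotation gives the symbol Gcat to 2 overlapping genes, whose longer one also covers Galr3, while the table has 1 row of that name, so the counts cannot be divided between them. Galr3 itself held 13 counts at most.

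Gldc (chromosome 19, 30098447 to 30175429, minus strand) was the other gene that was close to silent in MEFs. The mESC libraries held 69.9, 61.1 and 64.5 normalised counts, from 645, 538 and 547 counts, and the MEF libraries 1.44, 0.915, 1.08 and 0.159, from 15, 6, 9 and 1 counts. MEF D lay under the floor of 3 counts, and the other MEF libraries above it. The log2 fold change was 6.07 (95% interval 5.27 to 6.88, SE 0.364, edgeR adjusted p = 4.18e-07), and 212 of the genes tested had a larger one. Of the other 3 proteins of the glycine cleavage system, the aminomethyltransferase Amt rose as well, with 16.8 ± 3.995 normalised counts (SD, n = 4) in MEFs against 169 ± 88.3 (SD, n = 3) in mESCs and a log2 fold change of 3.33 (edgeR adjusted p = 2.87e-05). Its mESC libraries were unequal, with 180, 251 and 75.7 normalised counts, and all of them lay above the MEF libraries. The carrier protein Gcsh and the lipoamide dehydrogenase Dld, which also serves other complexes, did not pass the threshold, with log2 fold changes of 0.16 and -0.43 (edgeR adjusted p = 0.530 and 0.0790).

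Mthfd1 (chromosome 12, 76255298 to 76319803, plus strand) encodes the cytosolic enzyme with the synthetase, cyclohydrolase and dehydrogenase activities. It held 28.6, 29.6, 17.1 and 24.5 normalised counts in MEFs and 141, 142 and 139 in mESCs. The mESC libraries differed from each other by a CV of 1.204%, where the median CV of tested genes of like level (within a factor of 2 of its mean) was 11.03%. The log2 fold change was 2.495 (95% interval 2.06 to 2.93, edgeR adjusted p = 2.83e-06). No 50-base sequence of its annotated transcripts was found in another gene, and 0.833% of its exon bases overlapped the lncRNA Gm47525 on the opposite strand.

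Shmt1 (chromosome 11, 60788104 to 60811718, minus strand), the cytosolic serine hydroxymethyltransferase, rose with Mthfd1. It held 46.9, 40.9 and 42.6 normalised counts in mESCs, close together, and 12.9, 16.5, 5.87 and 3.50 in MEFs. The MEF libraries differed from each other by 4.71-fold, with a CV of 62.3% against a median of 28.3% for tested genes of like level. The log2 fold change was 2.16 (95% interval 1.24 to 3.09, SE 0.418, edgeR adjusted p = 0.00151). Every mESC library lay above every MEF library. On the opposite strand 4.74% of its exon bases overlap Smcr8, and whether counting used strand is not given in the sources used here.

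The mitochondrial counterparts did not rise. Shmt2 (chromosome 10, 127517123 to 127522444, minus strand) fell from 86.9, 110, 86.4 and 94.9 normalised counts in MEF A to D down to 50.9, 41.9 and 48.0 in mESC A to C. Its lowest MEF library lay above its highest mESC library, and its log2 fold change was -1.01 (95% interval -1.37 to -0.65, edgeR adjusted p = 0.000443). Mthfd1l (chromosome 10, 3973118 to 4167081, plus strand), the mitochondrial formate-producing synthetase, held 27.1 to 30.8 normalised counts in MEFs and 19.5 to 30.1 in mESCs, with overlap and a log2 fold change of -0.19 (95% interval -0.63 to 0.25, edgeR adjusted p = 0.475). This sign turned without TMM scaling, where the log2 fold change was 0.09. Mthfd2 (chromosome 6, 83305691 to 83325908, minus strand), the mitochondrial dehydrogenase and cyclohydrolase, held 237, 225, 228 and 222 normalised counts in MEFs and 232, 116 and 193 in mESCs. Its log2 fold change was -0.34 (95% interval -0.80 to 0.12, edgeR adjusted p = 0.207). The upper bounds of Mthfd1l and Mthfd2 lay below the lower bounds of Shmt1 and Mthfd1.

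**Figure D2:**
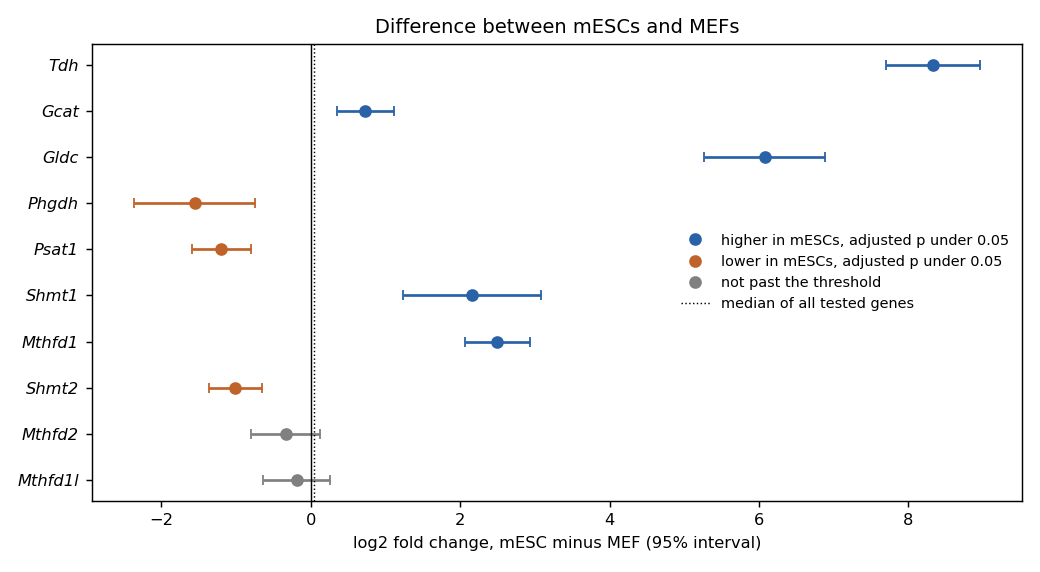
Log2 fold change (mESC minus MEF) of each gene with its 95% interval from edgeR, from 4 MEF and 3 mESC libraries; blue marks genes higher and orange genes lower in mESCs by the edgeR threshold of 0.05, grey marks genes past neither side, and the dotted line is the median of all genes tested. The cytosolic enzymes Shmt1 (2.16) and Mthfd1 (2.495) lie to the right, and the mitochondrial Shmt2 (-1.01), Mthfd2 (-0.34) and Mthfd1l (-0.19) to the left of 0.

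The ratio of 2 genes within a library does not depend on scaling between libraries, so it was compared between the cell types for 8 pairs. Such a ratio compares counts, and whether it equals the ratio of the amounts of the 2 RNAs was not tested. The count of Shmt2 was 6.74, 6.68, 14.6 and 26.6 times that of Shmt1 in MEF A to D and 1.09, 1.02 and 1.13 times in mESC A to C. On the log2 scale the mean ratio moved from 3.52 ± 0.96 (SD, n = 4) in MEFs down to 0.11 ± 0.07 (SD, n = 3) in mESCs, a difference of -3.41. Every MEF library lay above every mESC library (exact permutation test over 35 splits, two-sided, p = 0.0286, below which 4 and 3 libraries cannot go, and 0.0327 adjusted over the 8 pairs). The same p held for Mthfd1l to Mthfd1, with a log2 difference of -2.73, and for Mthfd2 to Mthfd1, with -2.92. The count of Mthfd2 was 8.27, 7.60, 13.3 and 9.05 times that of Mthfd1 in MEF A to D and 1.65, 0.817 and 1.39 times in mESC A to C. In all 3 pairs the mitochondrial enzyme was thus lower relative to the cytosolic one in mESCs. The pairs with Mthfd1 are not independent, since they share its rise, and Mthfd2 and Mthfd1l themselves did not pass the threshold.

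Among the other pairs, the Tdh to Gcat ratio rose by 7.61 on the log2 scale and the Gldc to Dld ratio by 6.80, without overlap. The ratio of Mthfd2 to Mthfd2l rose by 2.33, with mESC libraries at 8.37, 4.34 and 5.84. This difference was 1.24 without mESC A and 3.25 without mESC B. The ratio missed the threshold when 5 counts were added in place of 0.5 (exact permutation test, two-sided, p = 0.0571), and Mthfd2l held 6, 50 and 28 counts in mESCs.

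**Figure D3:**
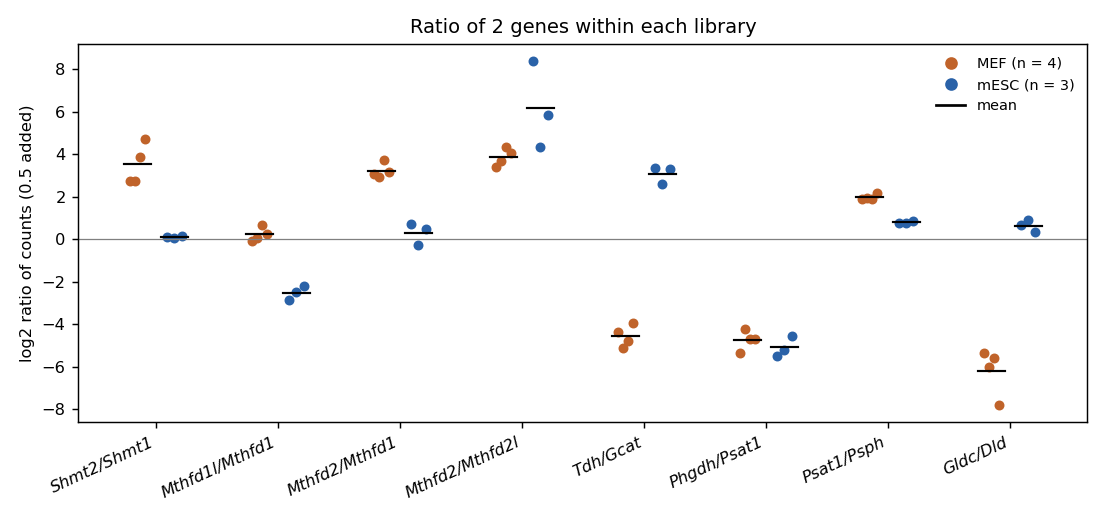
Log2 ratio of the counts of 2 genes in each library (0.5 added to both), for 8 pairs, MEFs in orange (n = 4), mESCs in blue (n = 3), bars at the mean. Shmt2/Shmt1, Mthfd1l/Mthfd1 and Mthfd2/Mthfd1 lie lower in all 3 mESC libraries than in all 4 of MEFs, and Phgdh/Psat1 is the pair that overlaps.

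Of the 3 enzymes of serine synthesis, Psat1 and Phgdh fell in mESCs and Psph did not pass the threshold. Psat1 (chromosome 19, 15904678 to 15947337, minus strand), the phosphoserine aminotransferase, fell from 389, 362, 291 and 408 normalised counts in MEF A to D to 189, 128 and 158 in mESC A to C. Its log2 fold change was -1.20 (95% interval -1.59 to -0.80, SE 0.177, edgeR adjusted p = 0.000261). Psph, the phosphatase of the last step, held 92.6 ± 11.04 normalised counts in MEFs (SD, n = 4) and 91.6 ± 19.8 in mESCs (SD, n = 3), a log2 fold change of -0.02 whose sign depended on the scaling. The Psat1 to Psph ratio differed by -1.17 on the log2 scale with no overlap (exact permutation test, two-sided, p = 0.0286).

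Phgdh (chromosome 3, 98313170 to 98339990, minus strand), the dehydrogenase of the first step, had few counts for its row, with 100, 128, 95 and 98 in MEFs and 38, 30 and 57 in mESCs. These gave 9.59, 19.5, 11.38 and 15.6 normalised counts in MEFs and 4.12, 3.41 and 6.72 in mESCs. The log2 fold change was -1.55 (95% interval -2.37 to -0.74, SE 0.367, edgeR adjusted p = 0.00508). The ratio of Phgdh to Psat1 overlapped between the cell types and differed by -0.35 on the log2 scale (exact permutation test, two-sided, p = 0.343).

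The Phgdh row is uncertain because much of its sequence is repeated elsewhere. Of the 50-base sequences of its annotated transcripts, 47.8% also occurred in transcripts of other genes, against 0 to 10.8% for the other 9 genes, and within the last 500 bases of the transcripts, nearest to the primed end in such libraries, the share was 42.2%. Reads were kept only where they mapped uniquely. The 4 processed pseudogenes Gm7901, Gm9347, Gm8341 and Gm7669, named after their values were seen, each held at least 10% of these sequences. For Gm7901 the row held 206, 192, 183 and 135 counts in MEF A to D and 87, 59 and 67 in mESC A to C, more than the Phgdh row in every library.

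Gm7901, Gm9347 and Gm7669 fell in mESCs, with log2 fold changes of -1.52, -2.09 and -2.09 (edgeR adjusted p = 0.000530, 0.0106 and 0.000947), and Gm8341 was too low to be tested. Summed with the 4 pseudogenes, an alternative chosen after seeing the data, Phgdh held 39.4, 67.1, 46.4 and 64.6 normalised counts in MEFs and 17.6, 13.9 and 18.8 in mESCs. The log2 fold change of the sum was -1.70 (SE 0.239, edgeR adjusted p = 0.000187). The direction was thus that of the row alone, at a higher level, with means of 54.4 ± 13.6 in MEFs (SD, n = 4) and 16.7 ± 2.55 in mESCs (SD, n = 3). Which of these counts came from Phgdh transcripts was not tested.

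**Figure D4:**
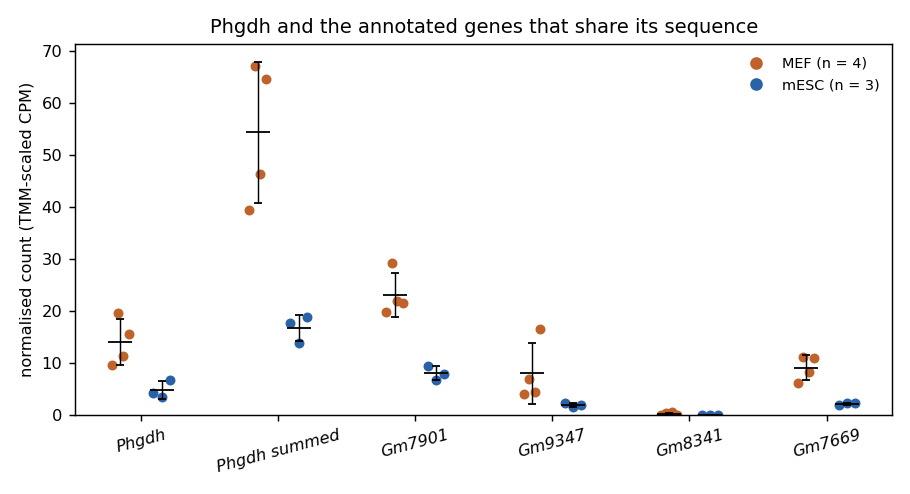
Normalised counts (TMM-scaled CPM) of the Phgdh row, of its sum with 4 pseudogenes, and of each pseudogene, in MEFs (orange, n = 4) and mESCs (blue, n = 3), with mean and SD. The mESC libraries lie below the MEF libraries in the Phgdh row (3.41 to 6.72 against 9.59 to 19.5) and in the sum (13.9 to 18.8 against 39.4 to 67.1).

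Within mESCs the libraries were not alike for part of these genes. Mthfd2 differed by 1.996-fold between mESC A and mESC B, a CV of 32.7% against a median of 10.4% for tested genes of like level, while its MEF libraries had a CV of 2.74%. Tdh and Psat1 had mESC CVs of 19.8% and 19.4%, against 9.60% and 10.7% for genes of like level. mESC B held the lowest mESC level in 7 of the 10 genes, and in 35.02% of all genes tested. It was also lowest for 5 of the 6 genes of the list with Atf4, the transcription factor of the amino acid response that is known to act on Psat1 and Mthfd2. Atf4 itself held 179, 124 and 156 normalised counts in mESC A, B and C. With 3 libraries no test of this was made. Between the cell types, 0 of the 6 genes (Atf4, Asns, Trib3, Chac1, Ddit3, Sesn2) passed edgeR's threshold, with a median log2 fold change of 0.09, and 3 had an unadjusted p under 0.05. DESeq2 called 1 of them lower, and edgeR without TMM scaling called 3 of them higher.

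The same pathways hold 59 further genes, of which 49 had enough counts to be tested. Of these 13 rose and 7 fell, where 22.8% of all genes tested were higher and 25% lower in mESCs by the same rule. Those shares are also the background for the counts of each list below. The median log2 fold change of the 49 genes was 0.11. Of the other folate enzymes, 2 of 6 genes tested fell and 0 rose, with a median log2 fold change of -1.19. Aldh1l2, the mitochondrial 10-formyltetrahydrofolate dehydrogenase, held 15.9 to 40.6 normalised counts in MEFs against 0.354 to 1.70 in mESCs, with a log2 fold change of -5.08 (edgeR adjusted p = 3.22e-05), and -6.01 without mESC B. Mthfd2l, the mitochondrial paralog of Mthfd2, had a log2 fold change of -2.34 (edgeR adjusted p = 0.00557), and -3.05 without mESC B. The thymidylate synthase Tyms and the thymidine kinase Tk1 had log2 fold changes of -0.05 and -0.03 without passing the threshold, with signs that turned without TMM scaling.

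Folate handling showed a large change in 1 gene. Folr1, a folate receptor of the cell surface, held 60.7, 48.7 and 43.7 normalised counts in mESCs, and the MEF libraries 0.480, 0.305, 3.71 and 0.954, from 5, 2, 31 and 6 counts, of which MEF C was highest and MEF B under the floor. Its log2 fold change was 5.19 (edgeR adjusted p = 3.49e-05), and 6.46 without MEF C. Of the 6 genes tested in that list, Ggh, which trims polyglutamate tails of folate, and the mitochondrial folate carrier Slc25a32 fell, by log2 fold changes of -1.53 and -0.86, and the call of Slc25a32 was lost without TMM scaling (log2 fold change -0.58). Without MEF B, MEF D, mESC B or mESC C that call was lost too, with -0.80 to -0.70.

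The methionine cycle and transsulfuration list had 5 of 8 tested genes higher and 0 lower, with a median log2 fold change of 0.92. Cth and Cbs, which turn homocysteine into cysteine, rose by log2 fold changes of 3.34 and 3.48 (edgeR adjusted p = 3.16e-07 and 1.84e-05), with Cth at 9.497 to 12.6 normalised counts in MEFs and 87.6 to 126 in mESCs. Gnmt, the glycine N-methyltransferase, held 0, 2, 0 and 0 counts in MEFs, all under the floor, and 49, 22 and 37 in mESCs (edgeR adjusted p = 0.000500). In purine synthesis, which uses 10-formyltetrahydrofolate, 4 of 6 genes rose and 0 fell. Gart, Ppat and Paics rose by log2 fold changes of 1.95, 1.81 and 1.23, and the median of the list was 1.22.

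The remaining lists were mixed. Of the transporters, 1 of 5 tested rose (Slc1a5, log2 fold change 0.64, a call lost without mESC A or mESC B, at 0.44 and 0.66) and 1 fell (Sfxn3, a sideroflexin of the mitochondrial membrane, -3.08). Of the threonine and serine breakdown genes, the serine racemase Srr fell by a log2 fold change of -2.41 (edgeR adjusted p = 0.00923) and Sdsl had 0.70 without passing the threshold, while the threonine aldolase Tha1 (at most 11 counts in any library) and Sds (at most 1) were too low to be tested. Of the choline and sarcosine genes, Sardh had a log2 fold change of -3.83 (edgeR adjusted p = 0.00378), and -5.34 without mESC B, from 1, 4 and 0 counts in mESC A to C, while Aldh7a1 and Dmgdh did not pass, and Chdh had at most 3 counts. Beside these, 9 of 12 cell cycle genes were higher and 0 lower in mESCs, led by Mcm7, Mcm3 and Mcm2 with log2 fold changes of 1.94, 1.54 and 1.48. Their summed level was 1407 to 1746 normalised counts in MEFs and 3022 to 3233 in mESCs, and its part in the folate and purine results was not tested.

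**Figure D5:**
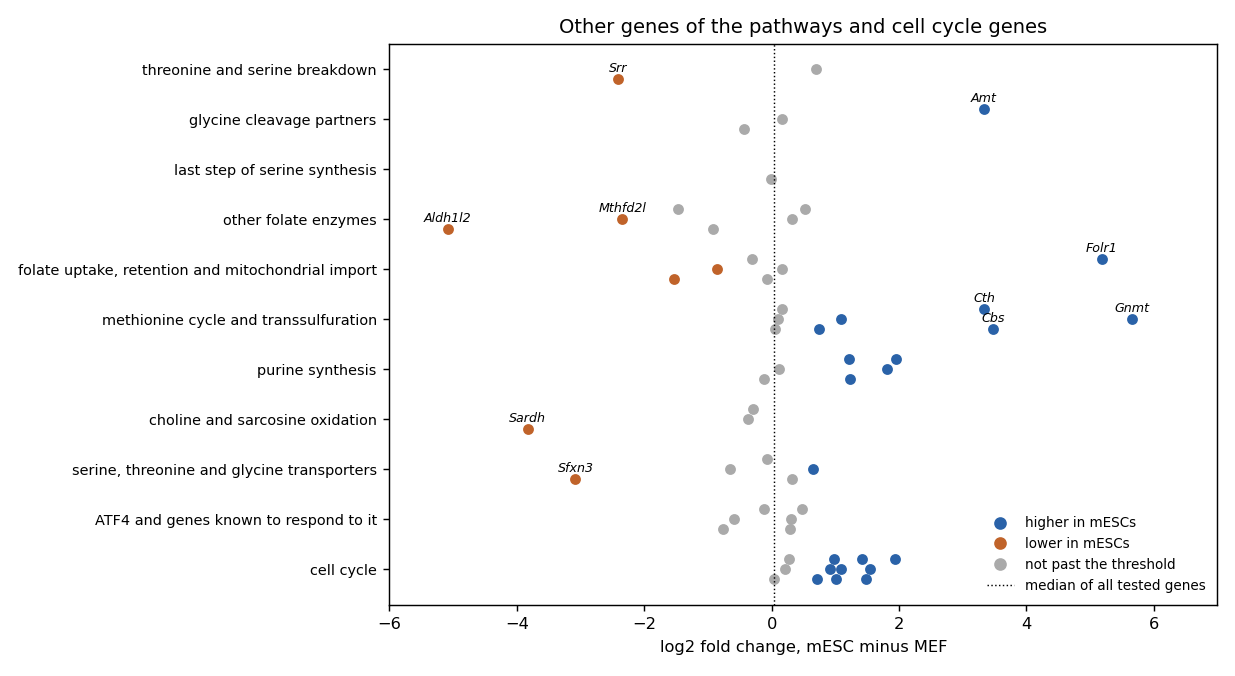
Log2 fold change (mESC minus MEF) of the tested genes of the further lists, without the thymidylate genes, from edgeR with 4 MEF and 3 mESC libraries; blue and orange mark genes higher and lower in mESCs by the edgeR threshold of 0.05, grey the rest, and the dotted line is the median of all genes tested. The methionine, purine and cell cycle lists hold blue points and no orange ones, and none of the genes listed with Atf4 is coloured.

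Since Gldc, Shmt1 and Mthfd1 rose together while Psat1 and Shmt2 fell and Mthfd2 did not pass the threshold, the 120 bases before their start sites are shown, so that both directions can be compared (RefSeq, GRCm38.p6, 5′ to 3′ on the gene's strand). They lie at chr19:30175442-30175561 for Gldc (minus strand), chr11:60811266-60811385 for Shmt1 (minus), chr12:76255112-76255231 for Mthfd1 (plus), chr6:83317605-83317724 for Mthfd2 (minus), chr19:15925060-15925179 for Psat1 (minus, the first of its 2 listed start sites) and chr10:127522445-127522564 for Shmt2 (minus). Capitals mark matches on either strand to the CCAAT box (CCAAT), the GC box (GGGCGG), the TATA box (TATAAA), the E-box (CACGTG), the core of the NRF1 site (GCATGCGC) and the site of ATF4 with CEBP factors (TGATGNAA). The stretch of Mthfd1 is also exon of the lncRNA Gm47525. Those of Mthfd2, Psat1 and Shmt1 lie inside the gene spans given above, since their RefSeq starts lie downstream of the outermost annotated 5′ ends. Those of Gcat, Phgdh and Mthfd1l are not shown.
Gldc: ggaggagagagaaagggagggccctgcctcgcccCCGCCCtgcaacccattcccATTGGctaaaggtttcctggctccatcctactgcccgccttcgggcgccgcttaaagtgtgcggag
Shmt1: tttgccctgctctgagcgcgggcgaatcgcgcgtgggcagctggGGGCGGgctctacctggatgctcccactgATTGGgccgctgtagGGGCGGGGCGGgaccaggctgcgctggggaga
Mthfd1: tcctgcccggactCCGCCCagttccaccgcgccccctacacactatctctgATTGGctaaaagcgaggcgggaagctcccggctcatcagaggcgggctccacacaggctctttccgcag
Mthfd2: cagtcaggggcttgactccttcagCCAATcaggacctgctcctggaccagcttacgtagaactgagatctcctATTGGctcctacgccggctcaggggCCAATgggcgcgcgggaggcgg
Psat1: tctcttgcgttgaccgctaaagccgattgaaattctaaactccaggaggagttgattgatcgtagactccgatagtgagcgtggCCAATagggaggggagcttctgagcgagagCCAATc
Shmt2: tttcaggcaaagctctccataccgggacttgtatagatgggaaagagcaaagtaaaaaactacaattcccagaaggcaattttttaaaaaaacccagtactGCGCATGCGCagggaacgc

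RefSeq entries were found for 9 of the 10 genes, all but Tdh. In the 250 bases before their start sites, 6 of the 9 held a CCAAT box (Gldc, Mthfd1, Mthfd2, Phgdh, Psat1 and Shmt1), which 33.8% of 32851 listed promoters hold. The CCAAT box of Gldc, Shmt1 and Mthfd1 lay on the reverse strand and began 66, 47 and 69 bases before the start. Mthfd2 held 3 of them and Psat1 a pair. The middle box of Mthfd2, which did not rise, also lay on the reverse strand and began 47 bases before the start, as in Shmt1. The other boxes of Mthfd2 and those of Psat1 and Phgdh lay on the forward strand. A GC box was found for 6 of the 9 genes, against 32.7% of promoters. For Psat1, which has 2 listed start sites, a match before either counted. Its GC box lay before the second start site, which is not shown. Shmt2 held neither of these boxes but the NRF1 core, in overlapping matches on both strands, which 2.26% of promoters hold. The letters of the TATA box were found in Phgdh alone (12.4% of promoters), at positions -189 to -184 from the start. The E-box (6.02%) and the ATF4 site (3.45%) were in none of these windows. Gcat, which rose, held a GC box but no CCAAT box, while Phgdh, which fell, held the CCAAT box. Genes that rose and genes that fell thus both held the CCAAT box, and a match of letters is a description, not a site.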

How the data were processed

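RNA of 4 MEF and 3 mESC samples was profiled with poly(A)-primed, 3-prime biased libraries carrying unique molecular identifiers. The authors aligned reads to mm10 with STAR (2.4.2a in the submitters' processing notes, where the study's methods give a later release), collapsed identifiers, ran featureCounts on the exonic reads with a unique position and deposited whole-number counts per gene symbol. The annotation release and strand setting are not given in the sources used here. Columns name the cell type but not the sample, so libraries were assigned by group and lettered in column order. The number of per-sample columns not used was 0. Of the rows, 26 bore date-like names (0.249% of counts) and were fitted like any other gene.

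Counts were fitted with edgeR 4.0.16 (filterByExpr, TMM, quasi-likelihood test, Benjamini-Hochberg adjustment over 16580 genes, threshold 0.05), with mESC against MEF as the term, in R 4.3.3. Levels are TMM-scaled CPM, and plotted levels use a prior count of 2. The code was tested on simulated data. Ratios of counts within a library, with 0.5 added, were compared by exact permutation tests. DESeq2 1.42.0, other scalings and filters, a test against a fold change of 2 and leaving out each library were tried. Library pairs of a group differed beyond sampling noise (chi-square per degree of freedom 15.6 to 31.1). Coordinates, exon overlaps and shared 50-base sequences come from the GENCODE annotation of GRCm38, promoters from RefSeq, and the motifs were chosen with these sequences in view.

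The members, gene lists and tests were chosen with earlier results of these data known. Named are the 10 genes, up to 3 genes a list with the largest absolute log2 fold change among those past the threshold, every gene of lists of 4 or fewer, and the partners of ratio pairs. A gene that this rule names is not reported here, and it stays in the counts over all further genes.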

Additional observations from a re-analysis of the deposited data

Results flagged for a closer look

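Of 48 values checked in the 4 MEF libraries, 3 had a library far from the others, where chance gives about 2.4. Ggh held 23.0 normalised counts in MEF B and 45.2 to 47.8 in the other MEF libraries. Gnmt held 0.305 in MEF B, from 2 counts and under the floor of 3 counts, and 0 in the others. Mcm3 held 64.8 in MEF B and 51.1 to 53.3 in the others. None of the 10 genes of the report was among them.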

How the results depend on the processing

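Leaving out each library in turn kept 5 of the 10 genes higher and 3 lower, and all genes that differed numbered 7032 to 7522 (3234 to 3619 higher, 3792 to 3916 lower). Over all settings, 126 values of the 10 genes kept direction and side of the threshold, 4 missed the threshold and 1 changed sign. Tested against a fold change of 2, 3991 genes differed (1714 higher, 2277 lower), 0 of the 10 genes were called lower and 7 other pathway genes higher, and edgeR's adjusted p was 0.999999 for Gcat (0.73), 0.567 for Shmt2 (-1.01), 0.0867 for Phgdh (-1.55) and 0.157 for Psat1 (-1.20), since that test asks for a larger change. Without TMM scaling Mthfd1l had a log2 fold change of 0.092, Psph 0.27, Tyms 0.24 and Tk1 0.26. Psph had 0.0027 with DESeq2 and 0.0028 with its size factors in edgeR. Leaving out 1 library gave -0.20 to 0.11 for Psph, -0.17 to 0.056 for Tyms and -0.11 to 0.080 for Tk1. The log2 ratio of Mthfd2 to Mthfd2l differed by 2.02 with 5 counts added (exact permutation p = 0.0571), and by 1.24 to 3.25 without 1 library. The cause of these changes was not tested otherwise. No paired analysis was possible because the columns do not carry the samples' replicate numbers. The counts of Tdh and Gldc in MEFs (1 to 15) limit the precision of their fold changes.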
